A study of Mus musculus with 4 samples.

Results

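Regulatory T cells of mouse lung tumours were taken as the barcodes with at least 1 UMI of Foxp3, at least 1 UMI of Cd3d, Cd3e or Cd3g, and no UMI of Cd8a, Cd8b1, Cd79a, Epcam or C1qa. Barcodes under 200 genes, or with mitochondrial UMIs above 20%, were left out beforehand. This gave 171 cells of the 13531 kept barcodes in the 2 libraries made before immune depletion, and of 28085 in all 4 libraries. They are called Foxp3+ T cells here and were compared with 587 cells of the same gate that had Cd4 but no Foxp3 UMI, called Foxp3- CD4 T cells. Foxp3, Cd4 and the other genes of the gate chose the cells, so their values are given as a description only.

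All mice carried the alleles p53frt, Rosa-FSF-CreERT2 and Hnf4aflox. Tumours were started with an adenovirus carrying FlpO under a surfactant protein C promoter (mSPC), which directs FlpO, and through it CreERT2, to alveolar epithelial cells and not to T cells. Tamoxifen or vehicle, given as ethanol in one label and as corn oil in another, was injected at 10 weeks, and tumours were dissociated 2 weeks later. Cells were frozen either whole or after magnetic removal of CD45+ and CD31+ cells, then thawed and sorted as live single cells with DAPI. The 2 treatments, each with and without that removal, make 4 groups of 1 library, so no test between treatments is possible. The labels do not say how many animals or tumours were pooled, nor their age.

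Regulatory T cells are CD4 T cells that restrain other immune cells and are defined by the transcription factor Foxp3. They take up interleukin 2 through the high-affinity receptor that Il2ra completes, carry the inhibitory receptor Ctla4, and produce little of the cytokines made by helper T cells. In lung and other tissues, regulatory T cells with the interleukin 33 receptor Il1rl1, the inhibitory lectin Klrg1 and the growth factor Areg are known for a part in tissue repair.

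The 4 libraries held 6558 to 7867 barcodes and 92644997 to 144994771 UMIs. Pairs of libraries shared 10 to 18 barcode sequences, and no Foxp3+ T cell was among them. Hnf4a, the floxed gene, went against the treatment label: in Epcam+ Cd3- barcodes before depletion it stood at 28.9 CPM (exact Poisson 95% interval 27.6 to 30.3) with vehicle and 48.8 CPM (47.1 to 50.6) in the library labelled tamoxifen. The same order held after depletion, at 54.9 and 82.3 CPM. The labels do not say which exons are floxed, and 3′ UMIs can lie outside them, so this level need not report the deletion. CPM is the number of UMIs in 1000000 UMIs of the cells summed, and intervals here and below cover counting error only.

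Foxp3+ T cells numbered 125 of 7304 kept barcodes in the vehicle library, or 1.71% (exact Clopper-Pearson 95% interval 1.43 to 2.04). In the library labelled tamoxifen they numbered 46 of 6227, or 0.739% (0.541 to 0.984). Among Cd3+ Cd8- barcodes the shares were 15.0% of 835 (12.6 to 17.6) and 10.0% of 459 (7.43 to 13.1), and those intervals overlap. The spread between animals is unknown. After depletion the gate held 0 cells of 7043 and 0 of 7511, which allows shares of up to 0.0426% and 0.0399%. No Cd3+ cell of the gate was left there at all, so the depleted libraries say nothing more of these cells.

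Foxp3 RNA was rare in epithelial and macrophage barcodes, which should lack it. With vehicle, 0.280% of 2854 Epcam+ Cd3- barcodes and 0.334% of 1499 C1qa+ Cd3- barcodes had a Foxp3 UMI, at median depths of 17185 and 18420 UMIs. In the library labelled tamoxifen the shares were 0.169% of 2958 and 0.167% of 1196. Of Cd3+ barcodes with a Cd8a or Cd8b1 UMI, 5.11% of 235 and 3.53% of 170 had one. Foxp3+ T cells had median depths of 6712 and 5966 UMIs in the vehicle library and the library labelled tamoxifen, against 5720 and 6323 in Foxp3- CD4 T cells. The share with Foxp3 among Cd3+ Cd8- barcodes, 15.0% and 10.0%, was far above that in the deeper epithelial and macrophage barcodes. It was closer to the share in barcodes with a Cd8a or Cd8b1 UMI, whose median depths were 6308 and 6281 UMIs.

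A single Foxp3 UMI was seen in 35 and 16 of the Foxp3+ T cells, 2 in 26 and 11, and 3 or more in 64 and 19. Cells with 1 Foxp3 UMI held Ikzf2, which encodes the transcription factor Helios, at 2256 CPM with vehicle and 2013 CPM in the library labelled tamoxifen, where those with 2 UMIs held 1219 CPM and those with 3 or more 1362 CPM. Their Il2ra stood at 512 and 165 CPM, against 749 and 389 CPM in cells with 3 or more. Cells just outside the threshold, with Cd4 and no Foxp3 UMI, held Ikzf2 at 230 and 237 CPM and Il2ra at 132 and 56.9 CPM. The comparison cells are not free of cells with these marks: 31 of 373 and 10 of 214 had both an Il2ra and an Ikzf2 UMI. A Cd4 UMI was required of the comparison cells only, and 77 of 125 and 27 of 46 Foxp3+ T cells had one.

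The label was checked against its markers. Foxp3 itself stood at 308 CPM (exact Poisson 95% interval 278 to 341) and 287 CPM (237 to 345) in the Foxp3+ T cells of the vehicle library and of the library labelled tamoxifen. Ctla4 was at 1432 and 618 CPM in Foxp3+ and Foxp3- CD4 T cells with vehicle, and at 1387 and 477 CPM in the library labelled tamoxifen. Il2ra was at 667 and 132 CPM with vehicle and at 343 and 56.9 CPM in the other library. Both genes were higher in Foxp3+ T cells in each library, with log2 fold changes of 1.28 (SE 0.10, edgeR quasi-likelihood test, adjusted p = 0.000225) and 2.36 (SE 0.13, adjusted p = 7.52e-05). Icos, an inducible costimulatory receptor of activated T cells, did not separate the populations. It was at 559 and 673 CPM with vehicle and at 455 and 534 CPM in the other library, a log2 fold change of -0.34 (SE 0.10, adjusted p = 0.0808).

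Across all genes, Foxp3+ T cells differed from Foxp3- CD4 T cells of the same libraries at 842 of 9469 genes tested (8.89%), of which 415 (4.38%) were higher and 427 (4.51%) lower. The test was edgeR's quasi-likelihood test on the 4 sums of UMIs, with library as a term and an adjusted p under 0.05, and the genes of the gate were left out of all counts. The median log2 fold change over the genes tested was -0.01. With 2 libraries the design leaves 1 residual degree of freedom, and DESeq2 called 143 higher and 170 lower. Leaving out the library term gave 255 and 189, while removing barcodes with over 1% of UMIs from other lineages, an alternative chosen after seeing the data, gave 731 and 691.

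Of the core genes of regulatory T cells, 9 of 13 tested were higher and none was lower, with a median log2 fold change of 1.11. DESeq2 called 8 of the 13 higher. Ikzf2 was at 2211 CPM in Foxp3+ and 230 CPM in Foxp3- CD4 T cells with vehicle, and at 1491 and 237 CPM in the library labelled tamoxifen, a log2 fold change of 2.88 (SE 0.15, adjusted p = 4.27e-05). It was seen in 122 of 125 and 45 of 46 Foxp3+ T cells. Its relative Ikzf4, which encodes Eos, a partner of Foxp3 in repression, was at 131 against 24.1 CPM and at 124 against 26.2 CPM (log2 fold change 2.27, adjusted p = 0.000429). Itgae, the integrin chain that binds E-cadherin on epithelium, stood at 257 and 259 CPM in Foxp3+ T cells against 69.8 and 32.7 CPM in Foxp3- CD4 T cells. T cells with a Cd8a or Cd8b1 UMI and no Foxp3 held 289 and 355 CPM of it, so Itgae was not lower in them than in Foxp3+ T cells. Tnfrsf18, the costimulatory receptor GITR, Nrp1, Izumo1r and Capg also rose. Il2rb, the shared chain of the interleukin 2 and 15 receptors, did not pass (adjusted p = 0.149), nor did the ecto-enzymes Nt5e (0.219) and Entpd1 (0.993).

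**Figure D1:**
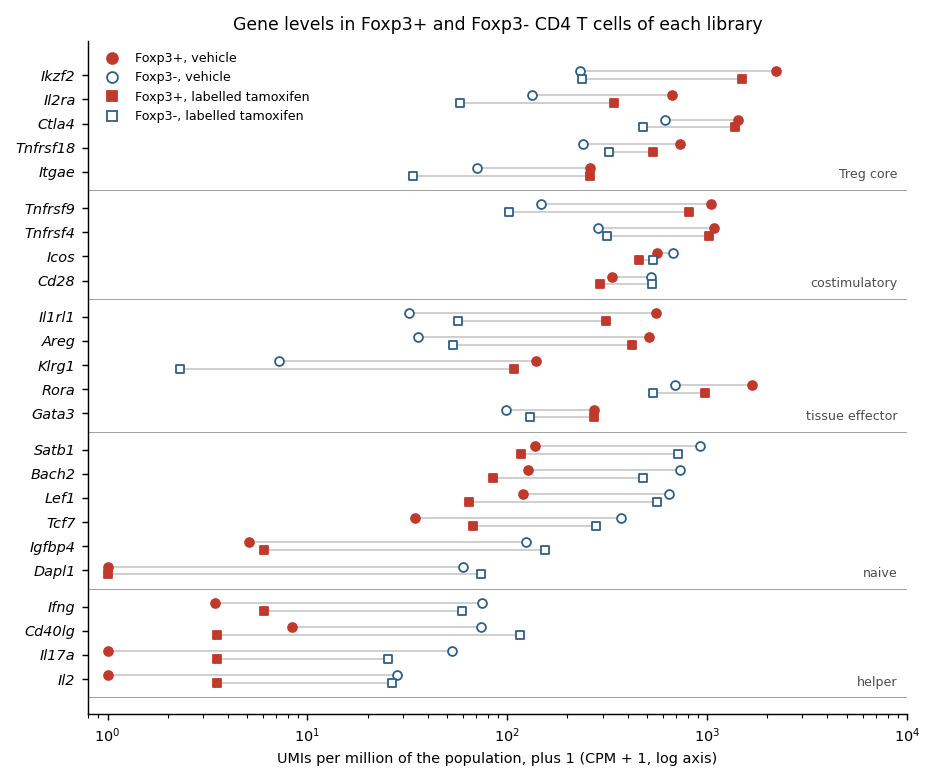
Levels of 24 genes in Foxp3+ (filled red) and Foxp3- CD4 T cells (open blue) of the vehicle library (circles) and the library labelled tamoxifen (squares), as CPM plus 1 on a log axis; each point is 1 sum over cells, with no error shown. The filled points lie right of the open ones for the core and tissue effector genes and left of them for the naive and helper genes in both libraries, while Icos and Cd28 lie slightly left.

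The plot of gene levels shows how large the gaps were next to the gap between libraries. Among costimulatory and tumour necrosis factor receptors 5 of 14 tested were higher and 2 lower (median 0.25). DESeq2 called 3 higher and 2 lower, and the fit without the library term 3 and 1. The highest ratio was that of Tnfrsf9 (4-1BB), at 1046 against 146 CPM with vehicle and at 815 against 101 CPM in the library labelled tamoxifen, a log2 fold change of 2.83 (SE 0.11, adjusted p = 2.3e-05). Tnfrsf4 (OX40) was at 1087 and 283 CPM and at 1016 and 316 CPM (log2 fold change 1.73, adjusted p = 9.38e-05). After each cell was thinned to 2000 UMIs, Tnfrsf4 was still seen in 101 of 124 and 39 of 45 Foxp3+ T cells, against 97 of 368 and 64 of 208 Foxp3- CD4 T cells. Tnfrsf1b, Traf1 and Nfkb2 rose as well. Cd28 fell, at 333 against 522 CPM and 290 against 531 CPM, and so did Cd40lg, the ligand by which helper T cells activate B cells and dendritic cells, at 7.39 against 72.6 CPM and 2.54 against 114 CPM.

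Inhibitory receptors and regulators rose in 4 of 10 tested, namely Ctla4, Cd200r1, Tox and Pdcd1, and Vsir fell. DESeq2 called 2 higher and none lower, and the fit without the library term 3 and none. Tox, a nuclear factor of chronically stimulated T cells, was at 1526 and 425 CPM with vehicle but at 805 and 437 CPM in the library labelled tamoxifen (log2 fold change 1.30, SE 0.20, adjusted p = 0.00454). Tigit (adjusted p = 0.689), Havcr2 (0.648) and Lag3 (0.669) did not pass, and all 3 stood below 40 CPM in the Foxp3+ T cells of both libraries.

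Of the effectors through which regulatory T cells are known to act, 7 of 11 tested were higher and none lower, with a median log2 fold change of 1.07. Areg, a growth factor for epithelium, was at 510 against 34.9 CPM with vehicle and at 422 against 52.3 CPM in the other library (log2 fold change 3.38, SE 0.21, adjusted p = 9.38e-05). Itgb8, the integrin chain that activates latent TGF-beta, was at 190 against 15.9 CPM and at 104 against 9.81 CPM (3.42, SE 0.22, adjusted p = 9.78e-05). Cd83, Fgl2 and Ebi3, a subunit of interleukin 35, rose by 2.29, 1.76 and 1.89 on the log2 scale, and Tgfb1 and Lgals1 by 0.69 and 0.75. Il10, the best known suppressive cytokine, did not pass (adjusted p = 0.711): it was seen in 5 of 125 and 3 of 46 Foxp3+ T cells, and a single cell gave 67% and 86% of its UMIs there. Gzmb (adjusted p = 0.135) and Prdm1 (0.131) did not pass either.

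The tissue effector list, which shares Areg and Itgae with the lists above, moved the same way. Of 16 tested, 11 were higher and none lower, with a median of 1.19, and DESeq2 called 9. Il1rl1, the receptor for interleukin 33, was at 554 and 31.4 CPM with vehicle and at 310 and 55.6 CPM in the library labelled tamoxifen (log2 fold change 3.28, SE 0.33, adjusted p = 0.000651). Klrg1 was at 138 and 6.21 CPM and at 107 and 1.31 CPM (4.81, SE 0.37, adjusted p = 0.000176). Gata3, the regulator of type 2 programmes, Rora, Pparg, the decoy receptor Il1r2, Rgs2, S100a4 and Penk also rose. Penk rested on 11 and 5 cells. Batf (adjusted p = 0.123), Ccr8 (0.0721), Maf (0.621), Nfil3 (0.0696) and Irf4 (0.439) did not pass.

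Within the Foxp3+ T cells these genes were not found in all cells, and they overlapped. Il1rl1 was seen in 88 of 125 and 26 of 46 cells, Areg in 71 and 23, and Klrg1 in 50 and 15. Of the Klrg1+ cells, 94.0% (exact Clopper-Pearson 95% interval 83.5 to 98.7) had an Il1rl1 UMI with vehicle and 93.3% (68.1 to 99.8) in the library labelled tamoxifen. Of the cells without Klrg1, 54.7% (42.7 to 66.2) and 38.7% (21.9 to 57.8) did. The Klrg1+ cells were deeper with vehicle, with a median of 7878 UMIs against 6468, and alike in depth in the other library, with 5980 against 5852. Lef1 was seen in like shares of Klrg1+ and Klrg1- cells: in 50% (35.5 to 64.5) and 48.0% (36.3 to 59.8) with vehicle and in 33.3% (11.8 to 61.6) and 25.8% (11.9 to 44.6) in the other library, intervals that overlap within each library.

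**Figure D2:**
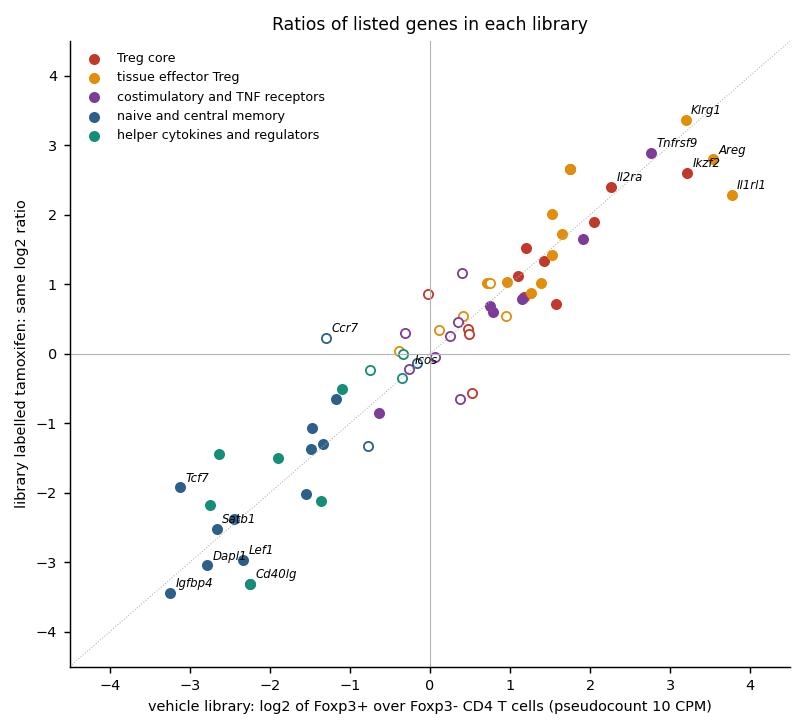
Log2 ratio of Foxp3+ over Foxp3- CD4 T cells (pseudocount 10 CPM) in the vehicle library (horizontal) and the library labelled tamoxifen (vertical) for the tested genes of 5 lists; filled points had an adjusted p under 0.05, open ones did not, and the dotted line marks equal ratios. The core and tissue effector genes that passed lie in the upper right and the naive and helper genes that passed in the lower left.

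Genes of naive and central memory T cells were lower. Of 14 tested, 11 fell and none rose, with a median log2 fold change of -1.83, whether or not Dapl1 is set at its bound. Satb1, a chromatin organiser, was at 137 against 921 CPM with vehicle and at 117 against 717 CPM in the library labelled tamoxifen (log2 fold change -2.78, SE 0.12, adjusted p = 2.3e-05). The transcription factors Bach2, Lef1 and Tcf7 fell by 2.61, 2.78 and 2.96 on the log2 scale, and Igfbp4 fell by 4.97 (adjusted p = 7.52e-05). Dapl1 had 0 UMIs in all Foxp3+ T cells against 263 in Foxp3- CD4 T cells, at least 34.4-fold lower with a floor of 3 UMIs over both libraries. S1pr1, needed to leave tissue for lymph, was at 70.7 against 227 CPM and at 38.1 against 184 CPM (-1.96, adjusted p = 0.000555). Il7r, the interleukin 7 receptor, did not pass (adjusted p = 0.145): it was at 842 against 946 CPM and at 818 against 901 CPM. Ccr7 did not pass either (adjusted p = 0.256), and 45% of its UMIs in the library labelled tamoxifen came from 1 cell.

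Thinned cells show how the naive and effector genes were spread. Foxp3+ T cells held a median of 4 UMIs of the naive list in both libraries, against 9 and 8 in Foxp3- CD4 T cells. They held a median of 14 and 11 UMIs of the tissue effector list, against 3 and 3. In Foxp3- CD4 T cells the lists ran against each other, with Spearman's rho of -0.60 over 368 cells with vehicle and -0.53 over 208 in the library labelled tamoxifen. In Foxp3+ T cells rho was 0.08 over 124 cells and -0.06 over 45. Cells of 1 library share its depth and are no replicates, so these are descriptions. At least 2 UMIs of both lists were found in 102 of 124 and 38 of 45 Foxp3+ T cells. The same held for 221 of 368 and 126 of 208 Foxp3- CD4 T cells. Il7r, which did not pass, had the most UMIs of the naive list in Foxp3+ T cells.

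**Figure D3:**
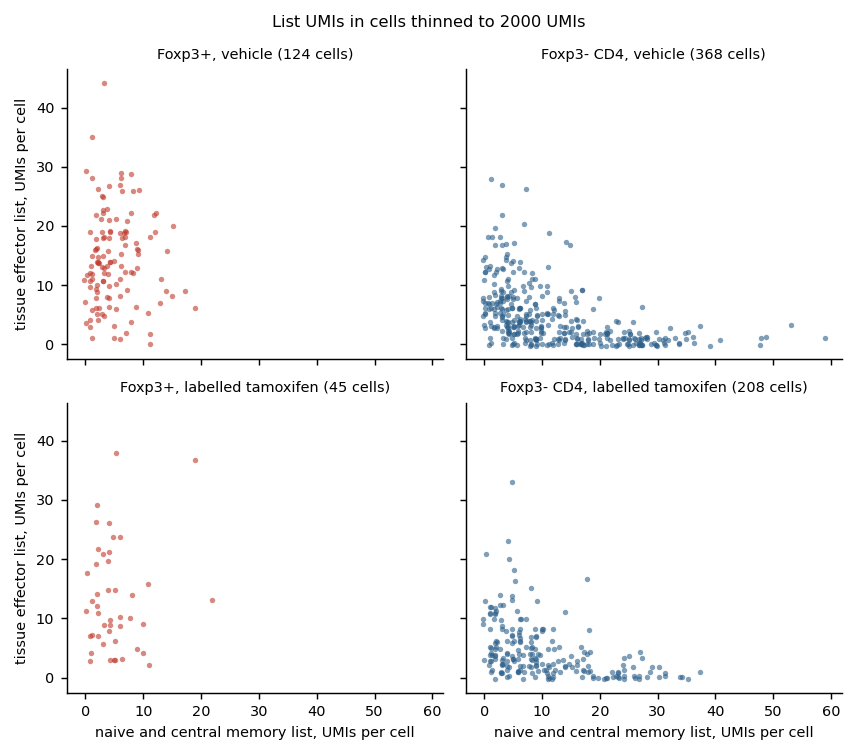
UMIs of the naive and central memory list (horizontal) and of the tissue effector list (vertical) in single cells thinned to 2000 UMIs, with small random offsets, for Foxp3+ (left, red) and Foxp3- CD4 T cells (right, blue) of each library. Foxp3- CD4 T cells fill an arm of up to 59 naive UMIs with few effector UMIs, while no Foxp3+ T cell exceeds 22 naive UMIs.

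Helper cytokines and their regulators fell in 6 of 9 tested and rose in none (median log2 fold change -3.86). Ifng was at 2.46 against 73.7 CPM with vehicle and at 5.08 against 58.2 CPM in the library labelled tamoxifen (-4.49, SE 0.42, adjusted p = 0.000445). The Foxp3+ T cells of both libraries together held 1 UMI each of Il17a, Il2 and Il4, against 171, 109 and 97 in Foxp3- CD4 T cells. These are ratios of 67.1 (exact interval 11.9 to 2665), 42.8 (7.52 to 1704) and 38.1 (6.67 to 1518), on few cells. Tbx21, the regulator of type 1 helper cells, fell by 1.31 on the log2 scale (adjusted p = 0.035). Il5, Il13, Il17f, Il21 and Il22 were too low to be tested.

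Cytotoxic genes fell in 5 of 10 tested and rose in none, but DESeq2 called only 1 lower. Nkg7 was at 46.0 against 231 CPM and at 99.0 against 364 CPM (log2 fold change -2.21, adjusted p = 0.000183). Gzmk and Eomes had 0 UMIs in Foxp3+ T cells, at least 16.6-fold and 7.45-fold lower by the same floor. Ccl5 fell by 1.78 on the log2 scale (adjusted p = 0.028), although 1 cell gave 50% of its UMIs in the Foxp3+ T cells of the library labelled tamoxifen. The 10 gamma-delta T cell genes summed to 50.1 CPM in Foxp3+ and 88.1 CPM in Foxp3- CD4 T cells with vehicle and to 10.2 and 26.8 CPM in the other library, and 6 and 9 of them had no UMI in the Foxp3+ T cells.

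Chemokine receptors and homing molecules were mixed, with 2 of 18 higher and 5 lower (median -0.34), and DESeq2 called 1 higher and 2 lower. Ccr6 was at 79.7 against 18.2 CPM with vehicle and at 40.6 against 19.6 CPM in the other library (log2 fold change 1.64, adjusted p = 0.0151), and Ccr2 was at 240 against 79.2 CPM and at 150 against 74.6 CPM (1.26, adjusted p = 0.00424). Cxcr6, Itgb1, Gpr183 and S1pr1 were among those that fell. Of the cytokine receptors, Il2ra, Il1rl1 and Il1r2 rose and Tgfbr2, Il6ra and Il1r1 fell, of 20 tested, and DESeq2 called 3 higher and 1 lower.

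Genes of T cell identity fell in 7 of 14 tested, by modest amounts, and Cd2 rose. Without the library term 3 were lower and with DESeq2 5, and neither called any higher. Thy1, a surface glycoprotein of T cells, was at 121 against 296 CPM and at 107 against 272 CPM (log2 fold change -1.40, SE 0.14, adjusted p = 0.000616). Trac, the constant part of the receptor's alpha chain, was at 480 against 475 CPM and at 483 against 517 CPM (adjusted p = 0.564). Of 15 genes tested that respond to receptor signalling, Nfkbia rose, Cd69 fell, and Nr4a1 (adjusted p = 0.0738), Egr1 (0.643) and Nr4a3 (0.69) did not pass. As 4.38% of all genes tested were higher and 4.51% lower, these counts do not set the list apart. The fit without the library term called none of the 15, and DESeq2 called 1 higher.

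Among interferon response genes 2 of 13 tested rose and none fell, beside 4.38% and 4.51% of all genes tested. Without the library term none was called. Ifi27l2a was at 481 against 236 CPM with vehicle and at 907 against 454 CPM in the library labelled tamoxifen (log2 fold change 0.93, SE 0.10, adjusted p = 0.001). Of 20 cell cycle genes Mcm3 and Mcm6, subunits of the replicative helicase, were higher, both on 39 cells or fewer per library. That count too stands beside 4.38% of all genes tested. DESeq2 and the fit without the library term called neither.

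Outside the lists, the 10 higher genes with the largest fold change were Frmd5, Ednrb, Dscaml1, Gng11, Plxnd1, Swap70, Prickle1, Pcyt1a, Lamc1 and Myo1e. Frmd5 (GENCODE M21, GRCm38, chromosome 2, minus strand, 121545529 to 121807087) was at 377 against 14.7 CPM with vehicle and at 460 against 1.31 CPM in the library labelled tamoxifen (log2 fold change 5.42, SE 0.46, adjusted p = 0.000286). It was seen in 25 of 125 and 12 of 46 Foxp3+ T cells, so its level came from a minority of them. Il1rl1 was found in 84.0% (63.9 to 95.5) and 66.7% (34.9 to 90.1) of the Frmd5+ cells and in 67.0% (56.9 to 76.1) and 52.9% (35.1 to 70.2) of the others, intervals that overlap. Ednrb, an endothelin receptor, and the adhesion gene Dscaml1 were each seen in about as many cells and met in 22 of the 44 and 9 of the 16 Ednrb+ cells. Dscaml1 was found in 24.7% (15.8 to 35.5) and 16.7% (5.64 to 34.7) of the cells without Ednrb. Gng11 rested on 4 cells and 1 cell, and in the library labelled tamoxifen 1 cell held 100% of it.

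The 10 lower genes were St6galnac1, Tdrp, Tgfbr3, Vipr1, Pde5a, Fasl, St8sia1, Ms4a4b, Pard3 and Pde3b. St6galnac1 and Tdrp had 0 UMIs in Foxp3+ T cells, at least 19.6-fold and 12.0-fold lower. Pde3b, a phosphodiesterase, was at 26.3 against 284 CPM and at 22.9 against 249 CPM (log2 fold change -3.52, SE 0.18, adjusted p = 4.27e-05). Fasl, the death ligand, was at 4.11 against 66.0 CPM and at 2.54 against 62.8 CPM (-4.20, adjusted p = 0.000392). Vipr1 and Pde5a held 1 and 2 UMIs in all Foxp3+ T cells, against 83 and 115, ratios of 32.6 (5.68 to 1301) and 22.6 (6.10 to 188).

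Barcodes with RNA of other cell types were few but deep. More than 1% of UMIs came from macrophage, neutrophil, dendritic, endothelial or stromal genes in 7 of 125 and 2 of 46 Foxp3+ T cells, which held 11.3% and 14.4% of the UMIs summed, and in 13 of 373 and 5 of 214 Foxp3- CD4 T cells. The neutrophil list summed to 1148 and 737 CPM in Foxp3+ and Foxp3- CD4 T cells with vehicle, and to 109 and 111 CPM in the library labelled tamoxifen. The dendritic list summed to 943 and 797 CPM with vehicle, and to 3535 and 267 CPM in the other library. Without those cells 10 of 13 core genes, 13 of 16 tissue effector genes and 13 of 14 naive genes passed in the direction given above. Of the endothelial and stromal list, 1 of 4 tested genes (Cldn5) was higher before this removal and 3 of 4 after it. Their median log2 fold change was 1.58 and 2.43. After the removal 2 of 5 dendritic, 2 of 8 macrophage and monocyte and 0 of 4 neutrophil genes were higher, beside 731 of 9059 genes tested. Of these, 1 macrophage and monocyte gene was lower. The neutrophil gene Il1b, which had passed (log2 fold change 0.74, edgeR adjusted p = 0.0342), no longer did after it (0.63, adjusted p = 0.0684), with a fold of like size. Il1b depended on other settings too. Without barcodes of a Scrublet score over 0.25 it was at 0.18 (adjusted p = 0.804). Among members with a Cd4 UMI it was at 0.45 (adjusted p = 0.201). With cells thinned to 2000 UMIs it passed (0.99, adjusted p = 0.0109), and with DESeq2 it did not (0.71, adjusted p = 0.501).

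Between treatments, 1 library each allows values but no test, and Hnf4a went against the label, so directions are given for the libraries as labelled. A gene was counted as apart in Foxp3+ T cells when its log2 ratio (pseudocount 10 CPM) reached 1 in size, 1 library held 50 CPM or more, and the exact 95% interval of the ratio excluded 1. Of 4055 genes, 189 (4.66%) were apart, 53 (1.31%) higher and 136 (3.35%) lower in the library labelled tamoxifen. The same rule gave 39 (1.05%), 8 (0.216%) and 31 (0.837%) of 3704 genes in Foxp3- CD4 T cells, which are more numerous. Higher genes made up 28.0% of those apart with scaling to total UMIs and 47.0% with TMM scaling (77 higher, 87 lower), which moved the median log2 ratio of all genes from -0.09 to 0.03.

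None of 13 core genes and none of 15 tissue effector genes met the rule, which 4.66% of all 4055 genes met. At that share lists of this size would hold few such genes or none, so the counts do not set these lists apart. Their median log2 ratios were -0.27 and -0.19, beside -0.09 over all genes. Il2ra stood at 667 CPM with vehicle and 343 CPM in the library labelled tamoxifen, a log2 ratio of -0.94 with the pseudocount, just short of the rule, and at 132 and 56.9 CPM in Foxp3- CD4 T cells. Tox (1526 and 805 CPM, log2 ratio -0.91) and Il1rl1 (554 and 310 CPM, -0.82) were also short of it. Of the costimulatory list, Birc3, an inhibitor of cell death signalling, was apart, at 233 and 96.5 CPM.

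Several of the genes with the largest ratios were carried by 1 cell or a few. In 49 of the 189 genes apart, 36 of them higher, 1 cell gave over 50% of the UMIs of the higher library. The 220 UMIs of the chemokine Ccl22 and the 123 of Il12b in the library labelled tamoxifen came from 1 cell each, and 1 cell gave 76.6% of Cst3, 50.4% of Ccl5 and 77.2% of Napsa. On the lower side, 1 cell gave 98.8% of the Retnla UMIs of the vehicle library, 74.0% of Hdc, 58.0% of S100a8 and 40.5% of S100a9. Of 6 dendritic cell genes at 50 CPM or more 5 met the rule, all higher, and all 4 such neutrophil genes were lower. By the same rule 1.31% of all 4055 genes were higher and 3.35% lower. The sums of both lists are given above. Without the barcodes of over 1% other-lineage UMIs, 31 genes were higher and 110 lower, of 3965. The part of such barcodes in each of the other genes apart was not tested.

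**Figure D4:**
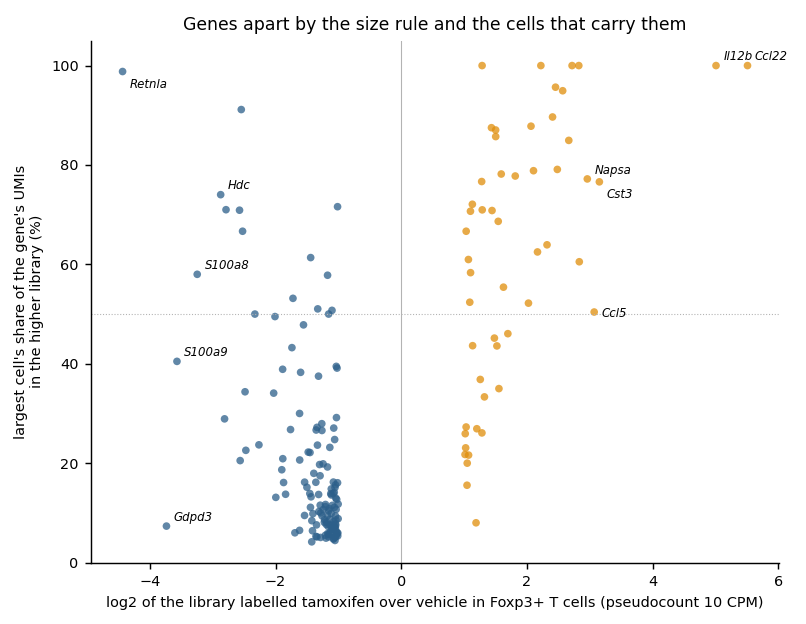
The 189 genes apart between treatments in Foxp3+ T cells: log2 ratio of the library labelled tamoxifen over vehicle (horizontal, pseudocount 10 CPM) and the share of the gene's UMIs in the higher library that came from its largest cell (vertical). Ccl22 and Il12b lie at 100%, while Gdpd3 lies at 7.33%, spread over many cells.

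Gdpd3, which encodes a phosphodiesterase of lysophospholipids, was spread over many cells, unlike Retnla and Hdc. Its GENCODE M21 (GRCm38) coordinates are chromosome 7, plus strand, 126766334 to 126775649. It had 150 UMIs in 49 of 125 Foxp3+ T cells with vehicle, or 123 CPM, and 0 UMIs in the 46 cells of the library labelled tamoxifen, at least 16.2-fold lower with a floor of 3 UMIs per library. In Foxp3- CD4 T cells it stood at 81.1 and 0.654 CPM, and in cells with a Cd8a or Cd8b1 UMI at 64.0 and 1.75 CPM.

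The 5 cell cycle genes (Mki67, Top2a, Birc5, Cdk1 and Ube2c) that met the rule were lower in the library labelled tamoxifen, of 15 at 50 CPM or more. Among all 4055 genes 3.35% were lower. Mki67, the proliferation antigen, stood at 198 and 45.7 CPM in Foxp3+ T cells and at 95.8 and 104 CPM in Foxp3- CD4 T cells. Cells with at least 5 UMIs of Mki67 and Top2a together made up 13 of 125 Foxp3+ T cells with vehicle, or 10.4% (5.65 to 17.1), and 3 of 46 in the other library, or 6.52% (1.37 to 17.9). These shares overlap within counting error. With vehicle those 13 cells had a median of 29379 UMIs against 6149 in the rest, and held 30.0% of all UMIs of the Foxp3+ T cells there.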

How the data were processed

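Single cells were measured with version 3 of the 10x Genomics 3′ kit, per the labels' protocols. Values in the deposited matrices are raw UMI counts, written by Cell Ranger 7.0.1 per the file headers. The submitters' processing notes name Cell Ranger 7.2.0 and mm10. Whether intronic reads were counted is not given in the sources used here. Of 32289 features, 32158 matched GENCODE M21 by identifier. An allele of the genotype and some genes are not reported here.

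Members and gene lists were chosen with earlier results of these data known, so list counts are descriptions. UMIs were summed per library and population. Populations of 1 library come from the same suspension, so edgeR 4.0.16 (quasi-likelihood test, TMM, filterByExpr, Benjamini-Hochberg adjustment) had library as a term, and sums of 2 libraries are its only replicates. DESeq2 1.42.0, other filters and other scalings were alternatives. The treatment comparison used a rule of size. The named genes outside the lists were the 10 higher and 10 lower with the largest fold change, the same sign in both libraries and at least 20 UMIs per library in the higher population, and 5 and 5 between treatments. Mitochondrial, ribosomal, immunoglobulin, receptor segment and sex-linked genes and unnamed genes were left out. The thinned Tnfrsf4 shares and the list UMIs per cell came from cells thinned to 2000 UMIs. This left out 1 cell of each Foxp3+ group and 5 and 6 Foxp3- CD4 T cells. Other shares of cells were taken at full depth, among them those of Klrg1, Il1rl1, Lef1, Frmd5, Ednrb, Dscaml1, Mki67 and Top2a. Doublets were not removed beyond the gate. Scrublet in scanpy 1.11.5, whose automatic threshold called 188 and 1 barcodes and so had not worked in the library labelled tamoxifen, was applied at a score of 0.25 as an alternative. Exact intervals cover counting error only.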

Additional observations from a re-analysis of the deposited data

Results flagged for a closer look

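For 4 genes the Foxp3+ and Foxp3- CD4 T cells stood in opposite order in the 2 libraries, and the difference between libraries was not tested. The log2 ratio (pseudocount 10 CPM) of Ccl22 was -2.38 with vehicle and 5.65 in the library labelled tamoxifen, where 1 cell held all of its UMIs. That of H2-Aa, a class II histocompatibility gene, was -0.45 and 3.08, and 1 cell gave 52% of its UMIs in the latter library. The chemokine genes Ccl3 and Ccl4 had ratios of 1.08 and 1.01 with vehicle and -1.77 and -2.87 in the library labelled tamoxifen. With vehicle, 1 cell gave 67% of the Ccl3 and 71% of the Ccl4 UMIs of the Foxp3+ T cells.

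In the libraries after depletion, which hold no Foxp3+ T cell, 6 barcodes with vehicle and 5 in the library labelled tamoxifen had a Foxp3 UMI. They held 1 UMI each, and all but 1 of them also had Epcam.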

How the results depend on the processing

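The counts of higher and lower genes between Foxp3+ and Foxp3- CD4 T cells, 415 and 427, moved by over 1.5 times under 5 alternatives. They were 731 and 691 without barcodes of over 1% other-lineage UMIs, and 812 and 714 against comparison cells without Il2ra or Ikzf2 UMIs. With no replicate block (library left out) they were 255 and 189, and with DESeq2 143 and 170. With no filter beyond 1 UMI the lower count was 753 and the higher 586. All 313 DESeq2 calls and 818 of the 1422 calls without mixed barcodes were among the 842 in the same direction. With only the Foxp3+ T cells that had a Cd4 UMI, 364 genes were higher and 381 lower. Of those 745 calls, 666 were among the 842 in the same direction. Of the genes checked, Ccl3 alone reversed: it fell by 1.68 on the log2 scale (adjusted p = 0.0241) among members with a Cd4 UMI, where its main value was 0.15 (adjusted p from 0.0241 to 0.9998 over its alternatives), and the cause was not tested. A count from 1 library alone has no residual degrees of freedom and was not made. With at least 2 Foxp3 UMIs, the shares of kept barcodes were 1.23% and 0.482%, and those of Cd3+ Cd8- barcodes 10.8% and 6.54%, lower by construction.

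The counts of genes apart between treatments, 53 higher and 136 lower, moved as well. The lower count was 212 with a pseudocount of 1 CPM and 87 with TMM scaling. Both counts moved with a minimum of 100 CPM (26 and 58) and with at least 2 Foxp3 UMIs (104 and 236). The higher count was 83 without barcodes of a Scrublet score over 0.25, 31 without mixed barcodes, and 122 with cells thinned to 2000 UMIs. Thinning for these ratios and removing mixed barcodes were chosen after seeing the data. The 46 cells and 393761 UMIs of the library labelled tamoxifen limit these ratios.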

Other observations

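Ighm, the constant region of the IgM heavy chain, was higher in Foxp3+ T cells, at 233 against 75.3 CPM with vehicle and 310 against 68.0 CPM in the library labelled tamoxifen (log2 fold change 1.80, SE 0.18, edgeR adjusted p = 0.000549). It was seen in 86 of 125 and 31 of 46 of them. The B cell genes Ms4a1, Pax5 and Fcmr had 0 UMIs in these cells, and barcodes with Cd79a were outside the gate. Igkc, Jchain and Cd79b were the other listed B cell genes tested, and none of them passed. With Ighm, the B cell list summed to 328 against 168 CPM with vehicle and to 490 against 231 CPM in the library labelled tamoxifen. The source of the Ighm UMIs was not tested. Zbtb46, a transcription factor known from dendritic cells, was also higher, at 80.5 against 25.6 CPM and 91.4 against 9.16 CPM (2.16, SE 0.37, adjusted p = 0.00846), in 44 and 15 cells. Of the other listed dendritic cell genes, Clec9a had at most 2 UMIs and Cd209a and Siglech had 0 in the Foxp3+ T cells of either library. The largest genes of that list there were Cd74, H2-Ab1, H2-Aa and Ccl22. Cd74 stood at 563 against 358 CPM with vehicle and at 1760 against 150 CPM in the library labelled tamoxifen. In the latter, a single cell gave 55% of the Cd74 UMIs of the Foxp3+ T cells. The source of the Zbtb46 UMIs was not tested.

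The gap in Gdpd3 between libraries was not limited to T cells: over all kept barcodes it had 6780 UMIs (65.7 CPM) with vehicle and 1456 (15.9 CPM) in the library labelled tamoxifen. C1qtnf12 was the other gene with no UMI in the Foxp3+ T cells of the library labelled tamoxifen and seen in at least 20 of those with vehicle, with 41 UMIs in 27 cells.

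In thinned cells, at least 2 UMIs of the interferon list were found in 60.5% (exact Clopper-Pearson 95% interval 51.3 to 69.1) of Foxp3+ and 43.5% (38.3 to 48.7) of Foxp3- CD4 T cells with vehicle. In the library labelled tamoxifen the shares were 80.0% (65.4 to 90.4) and 57.7% (50.7 to 64.5).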
